A study of Drosophila melanogaster with 18 samples.

Results

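The RNA of control ovaries was compared with the RNA of control female brains, organs of females of 1 genotype. The comparison takes 3 control ovary libraries and 3 control female brain libraries, 6 of the 18 total RNA libraries in the series. A gene was tested where its mean over these 6 libraries was 1 FPKM or more (fragments per kilobase of transcript, scaled to the mapped total), which left 10222 of 17288 gene identifiers. The genes at this limit were GV1, tested at a mean of 1.0 FPKM, and PH4alphaNE1, left out at 0.9998 FPKM, and 2416 genes were listed at 0 in all 6 libraries. The control flies, labelled wild-type, carried 1 copy of the tud1 allele. Their second chromosome with tud1, bw and sp lay over the balancer CyO with P[w+, hs-hid], and their X chromosome carried y and w. The tud mutants, whose 3 ovary and 3 female brain libraries are used to repeat the comparison, carried the same tud1 chromosome over the deficiency Df(2R)PurP133. All flies were young and kept at 25 °C, both organs were dissected by hand, and brains of many flies were pooled for a library. The remaining 6 libraries are male brains, 3 of tud mutants and 3 of controls.

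The ovary of Drosophila melanogaster is made of ovarioles in which germline stem cells, cysts, nurse cells and oocytes are wrapped in somatic follicle cells. Nurse cells copy their genome many times over and load the oocyte with RNA for the embryo, and follicle cells secrete the eggshell. In the germline, PIWI proteins guided by piRNAs (small RNAs made from transposon-rich loci) silence transposons. The adult brain is mostly neurons that no longer divide, together with glia, and is known for RNA of transmitter release, receptors, ion channels and neuropeptides. Each organ is a mixture, so fewer cells of a type and less RNA per cell cannot be told apart in these libraries.

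Sums of FPKM over all genes were 774677 to 905508 in ovary libraries and 1581931 to 1973983 in brain libraries. Protein-coding genes held 62.2 to 67.7% of that sum in ovaries and 31.7 to 40.1% in brains, and small nuclear RNAs held 1.88 to 2.26% in ovaries and 17.1 to 21.2% in brains. The steps between low FPKM values placed the depth at about 20900000 to 29100000 mapped fragments in ovaries and 9900000 to 14600000 in brains. This estimate takes FPKM as not scaled between libraries, which is not given in the sources used here. If so, low brain values rest on fewer fragments. Libraries of 1 tissue correlated at 0.957 to 0.988 (medians of Pearson's r across the tested genes on the log2 scale), and libraries of different tissues at 0.441 to 0.484.

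The labels were checked on piwi and aub, PIWI genes of the germline, and on Syt1 and brp, which encode the calcium sensor and the active zone scaffold of synapses. On chromosome 2L, 10982205 to 10987420 (BDGP6 coordinates), piwi had 148, 137 and 131 FPKM in ovaries and 0.874, 0.611 and 0.473 FPKM in brains. Next to it on chromosome 2L, 10997819 to 11001476, aub had 91.7, 86.2 and 88.8 FPKM in ovaries and 1.07, 1.15 and 2.1 FPKM in brains. The lowest ovary library lay 149.9 times above the highest brain library for piwi and 41.1 times for aub. For the synaptic pair the order was the other way round. Syt1 (2L, 2772327 to 2799979) had 0.338, 0.335 and 0.27 FPKM in ovaries and 160.3, 96 and 61.7 FPKM in brains. The scaffold gene brp (2R, 9503765 to 9541565) had 0.00996, 0.0368 and 0.0162 FPKM in ovaries and 48.8, 37.5 and 34.8 FPKM in brains. The log2 differences, taken on log2(FPKM + 1) as ovary minus brain here and throughout, were 6.41 for piwi, 5.23 for aub, −6.24 for Syt1 and −5.33 for brp. Their standard errors were 0.11, 0.16, 0.32 and 0.14, and their limma adjusted p were 3.1e-08, 2.7e-07, 2.8e-06 and 1.4e-07. All 5 tested germline markers were higher in ovaries and all 4 neuron markers were lower. The gene tud itself had 67.2, 61 and 63.2 FPKM in ovaries and 31.4, 26 and 23.9 FPKM in brains, so both organs held its RNA.

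**Figure D1:**
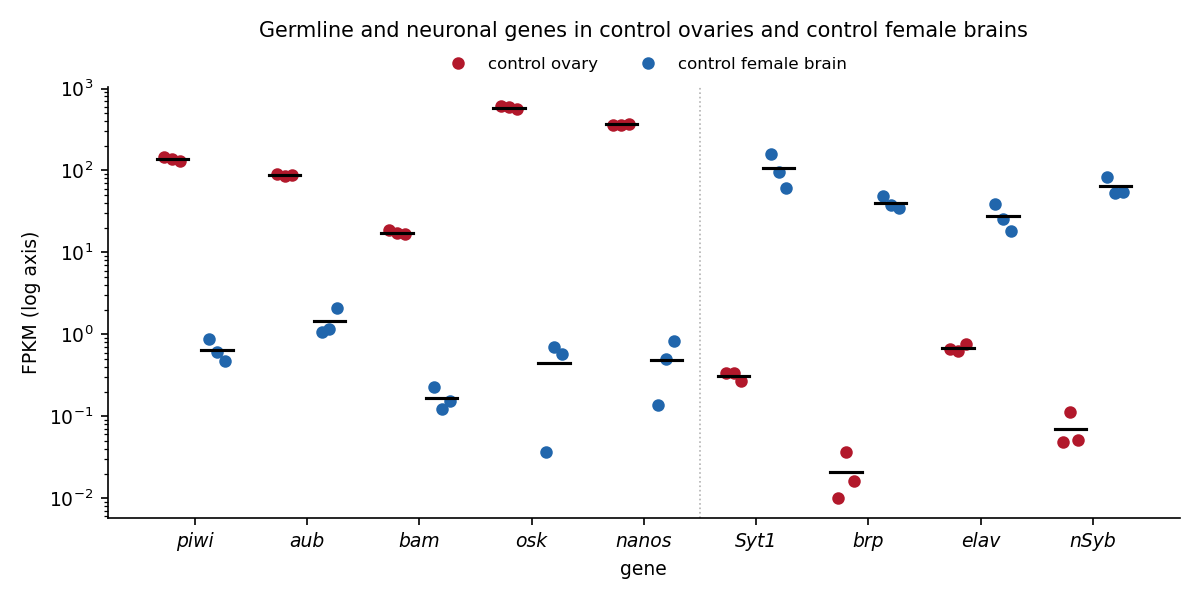
FPKM on a log axis (values under 0.01 drawn at 0.01) of 5 ovarian germline genes (piwi, aub, bam, osk, nanos) and 4 neuronal genes (Syt1, brp, elav, nSyb), with the 3 control ovary libraries left of the 3 control female brain libraries for each gene. Points are single libraries and bars are means. The ovary points of the germline genes lie above every brain point, and the ovary points of the neuronal genes lie below every brain point.

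Most genes differed between the organs. At a limma adjusted p of 0.05 or less, 3915 of the 10222 genes were higher in ovaries (38.3%) and 4752 were lower (46.5%), and for 8870 (86.8%) the 3 ovary libraries did not overlap the 3 brain libraries. A call alone therefore separates few genes from the rest, and 2891 of the 8667 called genes differed by less than 1 on the log2 scale. Genes called with a log2 difference of at least 2, written here as at least 4-fold, numbered 966 higher in ovaries (9.45%) and 2209 lower (21.6%). These shares of all tested genes are the background for the list counts below. A gene with a mean under 1 FPKM in 1 organ passed the filter only through the other organ. The direction of its means therefore followed from the filter. The median of all tested genes was −0.19. The split depended on the scale: with every library rescaled to the same sum of FPKM (equal sums), 5944 genes were higher and 2964 lower, and the median moved by 1.03. With protein-coding sums made equal, 50.4% of called genes were higher in ovaries, against 45.2% on FPKM as deposited.

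Tissue restriction was described by level, with no test: a gene was ovary-restricted when all 3 ovary libraries had 10 FPKM or more and all 3 brain libraries had under 1 FPKM, and brain-restricted in the opposite case. By this rule 183 genes (1.79%) were ovary-restricted and 791 (7.74%) were brain-restricted. Of the 183, 168 are protein-coding, 62 are known only by a CG or CR number, and 40 averaged 100 FPKM or more in ovaries. Of the 791, 754 are protein-coding, 286 are known only by such a number, and 141 averaged 100 FPKM or more in brains. Without the third brain library, the highest of its group for eggshell RNA, 213 genes were ovary-restricted.

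Among protein-coding genes, the ovary-restricted ones with the largest differences were Femcoat, osk, CG42857, CG13084, CG14545, nanos, gnu, Pxt, CG15571 and zpg. The eggshell gene Femcoat had 665, 618 and 558 FPKM in ovaries and 0.153, 0 and 0.513 FPKM in brains. The innexin gene zpg, which forms germline gap junctions, had 217.4, 221 and 246 FPKM in ovaries and 0.077, 0.392 and 0.207 FPKM in brains. CG42857, to which the annotation gives no name, had 371, 297 and 331 FPKM in ovaries and 0, 0.168 and 0.155 FPKM in brains. These 3 genes were under 0.6 FPKM in every brain library. The brain-restricted counterparts were ninaE, Arr2, 7B2, Ilp2, Rh2, Dsk, CG31706, CG9377, euc and CG4409. They hold 3 genes of photoreceptors (ninaE, Arr2 and Rh2) and 3 of peptide signalling (7B2, Ilp2 and Dsk). Whether RNA of attached eye tissue was in the brain libraries was not tested. CG31706 had 0.0982, 0.633 and 0.274 FPKM in ovaries and 928, 1054 and 912 FPKM in brains. CG9377 had 0.233, 0.366 and 0.111 FPKM in ovaries and 744, 847 and 882 FPKM in brains. The lowest brain library lay 1442 times above the highest ovary library for CG31706 and 2031 times for CG9377.

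The same comparison in tud mutants used libraries of its own. There, 3494 of 10540 genes were higher in ovaries (33.1%) and 4363 were lower (41.4%). Of the 3157 genes that differed at least 4-fold in controls and were tested in mutants, 3118 were called in the same direction and 2775 were again at least 4-fold different. Among all 8567 genes called in controls and tested in mutants, 7059 were called in the same direction and 16 in the opposite one. Of the restricted genes, 145 of 183 were ovary-restricted and 628 of 791 were brain-restricted in mutants too. In control male brains, 163 of the 183 ovary-restricted genes were under 1 FPKM in all 3 libraries, and 634 of the 791 brain-restricted genes had 10 FPKM or more in all 3. The tissue difference itself differed between mutants and controls for 110 of 10443 genes (1.05%) by the interaction term, piwi, tud and pgc among them. That count ranged from 45, without the first or the second control ovary library, to 469, without the first control female brain library.

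Long genes and short genes were distributed differently. Of 891 tested protein-coding genes that span 20 kb or more of genome, 4.94% were at least 4-fold higher in ovaries and 45.6% at least 4-fold lower, against 9.85% and 21.4% of all 9074 protein-coding genes. Between 2 and 5 kb, 12.6% were at least 4-fold higher and 16.3% lower. The median span was 2560 nt for ovary-restricted and 5232 nt for brain-restricted protein-coding genes, and 2811 nt for all of them. By chromosome, genes at least 4-fold higher in ovaries made up 11.5% of protein-coding genes on X and 8.19% on 2R, against 9.85% of all of them. Ovary-restricted genes made up 2.47% on X and 1.06% on 2R, against 1.79% of all tested genes. On the small chromosome 4, 23 of 76 tested genes were at least 4-fold lower in ovaries (30.3%). There 0 of the 76 were ovary-restricted, which with so few genes is near the 1.79% of all tested genes.

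**Figure D2:**
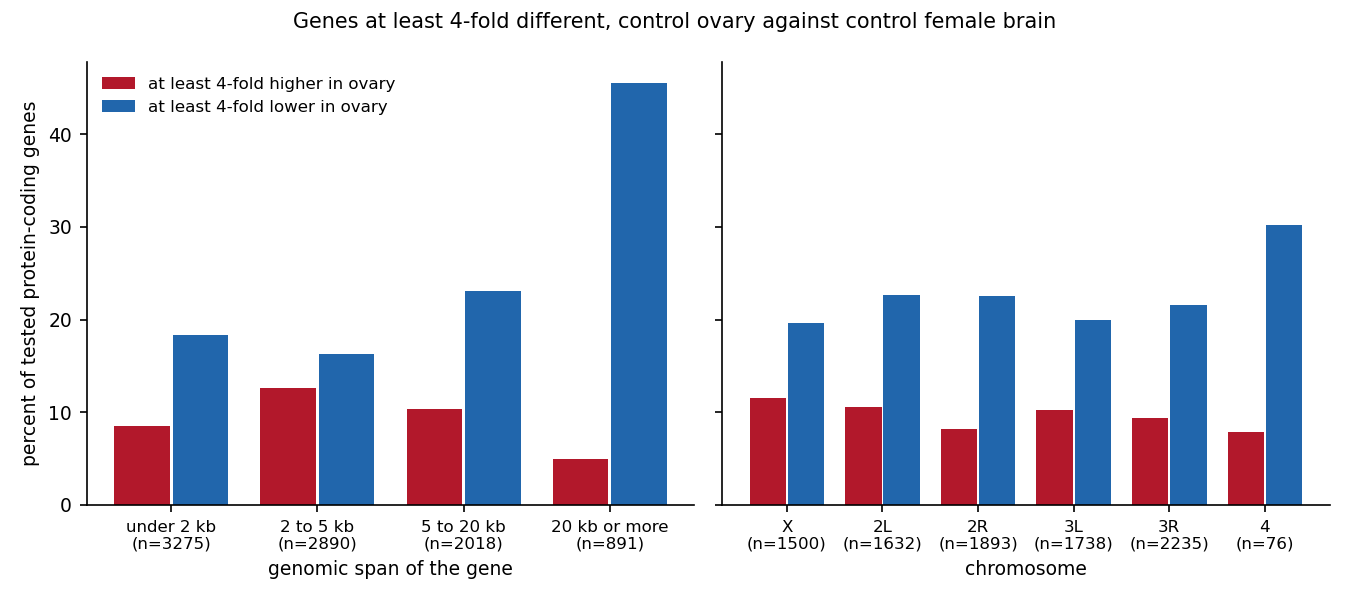
Percent of tested protein-coding genes at least 4-fold higher (left bar of each pair) and at least 4-fold lower (right bar) in control ovaries than in control female brains, by genomic span of the gene (left panel) and by chromosome (right panel). Genes spanning 20 kb or more had 4.94% higher and 45.6% lower, and chromosome 4 had 30.3% lower, from 76 genes.

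The most abundant messages were partly shared. RpL41, RpL38, RpL21 and RpS29, of the ribosome, were among the 10 protein-coding genes with the highest mean in ovaries and again in brains. The ovary list also held Cp15, a chorion gene, with 9607, 8183 and 8298 FPKM in ovaries and 0.926, 2.24 and 20.1 FPKM in brains. The thioredoxin gene of the egg, dhd, had 6067, 5955 and 6599 FPKM in ovaries and 2.2, 6.15 and 10.8 FPKM in brains. For both genes the third brain library was the highest of its group. The brain list held MtnA, a metallothionein gene, with 71.3, 88 and 191 FPKM in ovaries and 10857, 10903 and 13057 FPKM in brains. CG14645 had 26.9, 27.1 and 22.7 FPKM in ovaries and 19985, 7656 and 4250.1 FPKM in brains. CG8369 had 2.76, 3.57 and 5.41 FPKM in ovaries and 4456, 4738 and 5433 FPKM in brains. CG14645 thus varied 4.7-fold among brains, and each of the 3 genes was at least 56.8 times higher in the lowest brain library than in the highest ovary library.

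**Figure D3:**
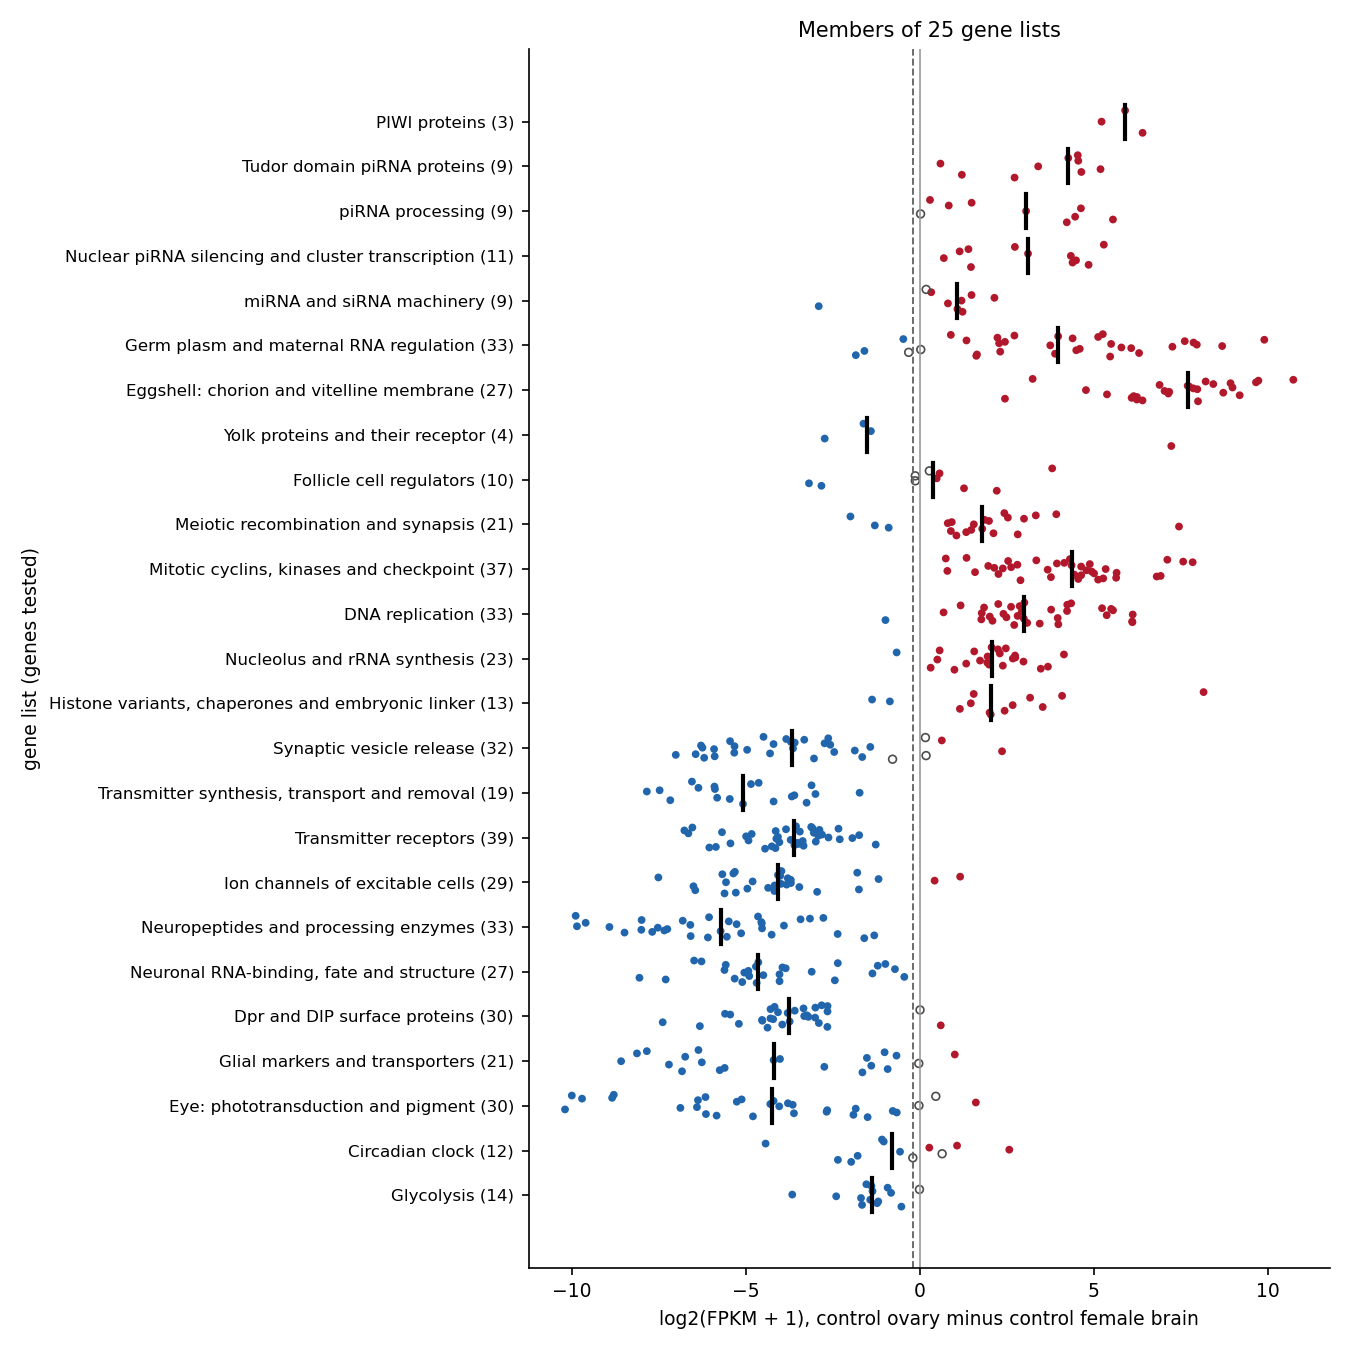
Difference of log2(FPKM + 1), control ovary minus control female brain, of each tested member (points) of 25 gene lists and the list median (bar), with the median of all 10222 genes, −0.19, as a dashed line. Filled points (red above 0, blue below) passed a limma adjusted p of 0.05 or less. Lists of germline and cell division genes lie mostly right of 0 and lists of neuronal genes lie mostly left of it.

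Genes of the piRNA pathway were higher in ovaries. All 3 PIWI genes, 9 tested genes of Tudor domain proteins and 11 genes of nuclear silencing and cluster transcription were higher, and so were 8 of 9 genes of piRNA processing. Of these 32 genes, 22 were at least 4-fold higher. AGO3, which amplifies piRNAs together with Aub, had 179, 173 and 195 FPKM in ovaries and 2.89, 2.4 and 1.16 FPKM in brains. The helicase gene spn-E had 49.7, 46.6 and 40.1 FPKM in ovaries and 0.237, 0.345 and 0.203 FPKM in brains. The lowest ovary library was 59.7 times or more above the highest brain library in both genes. Among Tudor genes, krimp, whose protein brings Aub and AGO3 together, had 63.1, 58 and 54.5 FPKM in ovaries and 1.44, 1.76 and 1.38 FPKM in brains. The smallest differences in that list were those of tud, at 1.21, and papi, a partner of PIWI proteins at mitochondria, at 0.60. fs(1)Yb, a gene of the somatic pathway, was under the limit for testing, with 0.78, 0.798 and 0.822 FPKM in ovaries and 0.0878, 0.128 and 0.157 FPKM in brains.

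Processing and nuclear factors ran in the same direction over a wide range of levels. The nuclease gene zuc, which cuts piRNA precursors, had 20.6, 22.6 and 20.7 FPKM in ovaries and 0.204, 0.222 and 0.137 FPKM in brains. The helicase gene armi had 106, 98.7 and 96.1 FPKM in ovaries and 2.79, 3.55 and 2.91 FPKM in brains. The germline gene squ had 126, 118 and 121 FPKM in ovaries and 1.46, 1.69 and 1.67 FPKM in brains. Brain levels of armi and squ were thus above 1 FPKM in every library, and those of zuc under 0.3 FPKM. In the nucleus, rhi, the HP1 homologue that marks dual-strand clusters, had 32, 31.1 and 35.6 FPKM in ovaries and 0.212, 0.256 and 0.0473 FPKM in brains. The gene moon, which starts transcription of such clusters, had 29.2, 26.3 and 27.6 FPKM in ovaries and 0, 0.346 and 0.532 FPKM in brains. Boot, which helps export their transcripts, had 103.5, 100.4 and 99.1 FPKM in ovaries and 1.88, 2.11 and 0.965 FPKM in brains. All 3 were at least 47 times higher in every ovary library than in any brain library. The smallest difference of the nuclear list was that of egg, a histone methyltransferase gene used in many cells, at 0.70. In the processing list mino, a mitochondrial acyltransferase gene, did not pass the test, with 54.2, 52.7 and 52.7 FPKM in ovaries and 43.8, 50.2 and 64.5 FPKM in brains.

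The miRNA and siRNA machinery, present in most cells, was less separated, with 7 of 9 genes higher in ovaries, 1 of them at least 4-fold, and 1 lower. Of all tested genes 38.3% were higher and 9.45% at least 4-fold higher. Dcr-2, the Dicer of siRNAs, had 56.7, 54 and 54.2 FPKM in ovaries and 11.7, 10.9 and 12.3 FPKM in brains. AGO1, the Argonaute of miRNAs, did not pass the test, with 28.6, 27.4 and 26 FPKM in ovaries and 33.5, 19.5 and 20.7 FPKM in brains. The gene lower in ovaries was loqs, a partner of Dicer proteins, with 12.8, 12.6 and 13.6 FPKM in ovaries and 99.2, 99.8 and 111 FPKM in brains. Its log2 difference was −2.90 (SE 0.07, limma adjusted p = 1.3e-07).

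Genes of germ plasm and maternal RNA control followed the germline. Of 33 tested, 28 were higher in ovaries, 24 of them at least 4-fold and 11 ovary-restricted, and 3 were lower. The gene osk (3R, 8935126 to 8938395) encodes the protein that assembles germ plasm and had 606, 588 and 557 FPKM in ovaries and 0.0362, 0.71 and 0.583 FPKM in brains. Nanos, a translational repressor at the posterior pole, is encoded by nanos, with 363, 364 and 369 FPKM in ovaries and 0.139, 0.503 and 0.836 FPKM in brains. The log2 differences were 8.70 (SE 0.19) for osk and 7.97 (SE 0.17) for nanos, with limma adjusted p of 6.9e-08 and 6.3e-08. The 3 subunits of the PNG kinase, which turns on translation at egg activation, were all ovary-restricted. The activating subunit gene gnu had 288, 275 and 299 FPKM in ovaries and 0.134, 0.292 and 0.27 FPKM in brains. The second, plu, had 74.7, 70.9 and 80.2 FPKM in ovaries and 0.233, 0 and 0.157 FPKM in brains. The catalytic subunit gene png had 22.9, 27.4 and 24.7 FPKM in ovaries and 0, 0 and 0.213 FPKM in brains. None of the 3 reached 0.3 FPKM in a brain library. The anterior determinant gene bcd had 42.7, 39.2 and 37.5 FPKM in ovaries and 0.0832, 0.11 and 0.304 FPKM in brains. Its localisation factor gene exu had 563, 528 and 479 FPKM in ovaries and 0.89, 1.68 and 2.7 FPKM in brains. Brain values of bcd and exu were at most 0.764% of the ovary mean, both in the third library.

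Some maternal regulators kept a level in brains. The helicase gene me31B, which holds stored messages silent, had 2906, 2725 and 2759.5 FPKM in ovaries and 59.6, 65.4 and 57.4 FPKM in brains. The gene pgc, which blocks transcription in germ cell precursors, had 553, 548 and 571 FPKM in ovaries and 9.28, 8.27 and 9.56 FPKM in brains. Their brain levels were above 8 FPKM in every library while the ovary libraries were 41.7 times higher or more. Of the members lower in ovaries, tsl, a factor of terminal patterning made in follicle cells, had 4.59, 3.15 and 4.72 FPKM in ovaries and 14.4, 16.9 and 20.7 FPKM in brains. The actin nucleator gene spir had 17.5, 16.7 and 16.3 FPKM in ovaries and 58.5, 47.1 and 52.5 FPKM in brains. The other nucleator gene, capu, had a smaller difference of −0.47, which turned to 0.54 at equal sums. The translational repressor gene cup is listed at 0 in all 6 libraries and was not tested. Why it is listed at 0 is not known here, so no absence of its RNA is concluded.

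Genes of meiotic recombination and synapsis were higher in ovaries in 18 of 21 cases, 8 of them at least 4-fold, and lower in 3. The Polo inhibitor gene mtrm, which acts at meiotic arrest, had 383, 364 and 369.7 FPKM in ovaries and 1.08, 0.946 and 1.38 FPKM in brains. The synaptonemal complex gene c(3)G had 21.6, 21.2 and 21.5 FPKM in ovaries and 1.98, 0.693 and 1.16 FPKM in brains. Another component gene of that complex, c(2)M, had 30.7, 30.1 and 37.3 FPKM in ovaries and 1.36, 1.84 and 0.597 FPKM in brains. So mtrm was above both complex genes in every ovary library. Against the direction of the list, cola (chromosome 2R) had 0.0246, 0 and 0 FPKM in ovaries and 4.95, 2.11 and 2.46 FPKM in brains. A meiotic role of the gene with this symbol was not checked, so its place in the list is uncertain. The Spo11 homologue gene mei-W68 had 1.53, 1.17 and 1.19 FPKM in ovaries and 5.31, 5.02 and 3.6 FPKM in brains, though its difference turned from −1.29 to 0.39 under quantile normalization. How reads over overlapping genes were assigned is not given in the sources used here.

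In the list of mitotic cyclins, kinases and checkpoint proteins 37 of 37 genes were higher in ovaries, 32 at least 4-fold and 14 ovary-restricted. In brains 20 of the 37 had a mean of 1 FPKM or more, and the direction of the others followed from the filter. The mitotic cyclin gene CycB had 606, 617 and 587 FPKM in ovaries and 0.953, 1.49 and 2.72 FPKM in brains. CycA had 755, 745 and 727 FPKM in ovaries and 2.15, 3.88 and 2.85 FPKM in brains. Their kinase gene Cdk1 had 259, 235 and 229.9 FPKM in ovaries and 0.768, 0.717 and 0.736 FPKM in brains. Brain libraries held at most 0.523% of the ovary mean for these 3 genes. Securin, the inhibitor of separase, is encoded by pim, with 152, 143 and 133 FPKM in ovaries and 0.132, 0 and 0.444 FPKM in brains. A smaller difference was that of fzr, the activator of the anaphase-promoting complex in cells that leave the cycle, with 38.9, 40 and 38.8 FPKM in ovaries and 21.5, 21.4 and 23.5 FPKM in brains.

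Genes of DNA replication were higher in ovaries in 32 of 33 cases, 27 of them at least 4-fold. PCNA, the sliding clamp, had 144, 146 and 134 FPKM in ovaries and 1.34, 0.706 and 1.14 FPKM in brains. For ribonucleotide reductase, which makes DNA precursors, RnrL had 214, 187 and 181 FPKM in ovaries and 1.5, 2.15 and 1.83 FPKM in brains. Its other subunit gene RnrS had 301, 299 and 297 FPKM in ovaries and 2.98, 2.87 and 4.24 FPKM in brains. No brain library exceeded 4.3 FPKM in these genes. Mcm7, of the replicative helicase, had 78.5, 78.8 and 69.7 FPKM in ovaries and 0.515, 0.592 and 0.777 FPKM in brains. The exception was Psf3, of the GINS complex, with 22.2, 22.4 and 23.6 FPKM in ovaries and 50.3, 44.4 and 43.2 FPKM in brains. Its log2 difference was −0.98 as deposited and 0.12 at equal sums, whereas the other GINS genes had 3.00 (Psf1), 1.77 (Psf2) and 3.09 (Sld5).

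Genes of the nucleolus and of chromatin assembly were mostly higher as well. In the nucleolar list 22 of 23 genes were higher, 12 of them at least 4-fold. The nucleolar protein gene mod had 726, 689 and 742 FPKM in ovaries and 53.2, 60.1 and 51.5 FPKM in brains. The rRNA pseudouridine synthase gene Nop60B had 275, 305 and 305 FPKM in ovaries and 13.8, 16.5 and 16.9 FPKM in brains. The lower one was Non1, a GTPase gene of large subunit assembly, at −0.66 as deposited and 0.47 at equal sums. Of 13 genes of histone variants and chaperones 11 were higher, 8 at least 4-fold. The embryonic linker histone gene BigH1 had 436, 414 and 452 FPKM in ovaries and 0.269, 0.326 and 1.08 FPKM in brains. The 2 lower genes both encode histone H3.3, which is laid down outside replication. His3.3A had 47.5, 50.2 and 47.3 FPKM in ovaries and 117, 106 and 161 FPKM in brains. His3.3B had 332.4, 364 and 384 FPKM in ovaries and 648, 521 and 817 FPKM in brains. At equal sums His3.3A did not pass (−0.25) and His3.3B turned from −0.85 to 0.28.

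Eggshell genes had a median log2 difference of 7.70, and 27 of 27 were at least 4-fold higher in ovaries. A brain mean of 1 FPKM or more was found in 10 of them, so the filter fixed the direction of the others. Follicle cells amplify the chorion gene clusters before they secrete the shell. Beside Cp15, Cp16 had 1306, 1479 and 1033 FPKM in ovaries and 0, 0 and 2.23 FPKM in brains. Cp19 had 1769.5, 1936 and 1481 FPKM in ovaries and 0.215, 0 and 6.78 FPKM in brains. The gene dec, which encodes precursors of inner chorion proteins, had 1361, 1208 and 1110.4 FPKM in ovaries and 0.141, 0.752 and 3.52 FPKM in brains. The third brain library was the highest of its group for each of these genes, at no more than 0.392% of the ovary mean. Of the vitelline membrane genes, which are used earlier, Vm34Ca had 786, 769 and 645 FPKM in ovaries and 0, 0.243 and 3.14 FPKM in brains. Genes of the shell's dorsoventral cue were lower in level: ndl, a protease gene, had 82.5, 72.3 and 67.9 FPKM in ovaries and 0.0722, 0.0873 and 0.137 FPKM in brains. The sulfotransferase gene pip had 8.79, 6.93 and 6.57 FPKM in ovaries and 0.602, 0.761 and 0.271 FPKM in brains.

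Yolk genes were split between uptake and production. The receptor gene yl, through which oocytes take up yolk, was ovary-restricted, with 194, 211 and 199 FPKM in ovaries and 0.0636, 0.312 and 0.746 FPKM in brains. The yolk protein gene Yp1 had 447, 442 and 444 FPKM in ovaries and 987, 1008 and 2539 FPKM in brains. Yp2 had 664, 812 and 714 FPKM in ovaries and 1436, 1259 and 3912 FPKM in brains. Yp3 had 306, 361 and 379.9 FPKM in ovaries and 1739, 1390.0 and 5084 FPKM in brains. All 3 yolk protein genes were called lower in ovaries, and in each the third brain library was 2.52 times or more above the next. Fat body makes yolk proteins too. Summed FPKM of 12 fat body markers was 487 to 535 in ovaries and 2392 to 4989 in brains, again highest in the third library, with 1 of 10 tested markers higher in ovaries and 8 lower (5 under quantile normalization). The part of fat body RNA in the yolk gene difference was not tested. Without that library the log2 differences were −1.16, −0.89 and −2.16, all still called, whereas at equal sums the calls of Yp1 (−0.48) and Yp2 (−0.27) were lost. The call of Yp2 was also lost without the first ovary library (−1.33).

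Regulators of follicle cells were mixed, with 5 of 10 tested genes higher in ovaries and 2 lower as deposited, and 8 higher and 2 lower at equal sums. The shares of all tested genes as deposited were 38.3% higher and 46.5% lower. The Maf factor gene tj of somatic gonad cells had 18.2, 15.4 and 15.6 FPKM in ovaries and 3.4, 3 and 1.95 FPKM in brains. Delta, the Notch ligand by which the germline signals to follicle cells, had 26.4, 25.6 and 24.2 FPKM in ovaries and 0.722, 1.16 and 0.794 FPKM in brains. The lowest ovary library was 4.53 times or more above the highest brain library for both. In the opposite direction, chinmo, a factor of cell identity, had 0.038, 0.0431 and 0.0659 FPKM in ovaries and 12.9, 8.55 and 5.47 FPKM in brains. The homeodomain gene ct had 1.32, 1.07 and 0.938 FPKM in ovaries and 16.6, 13.1 and 12.2 FPKM in brains. The border cell factor gene slbo was under the limit for testing, with 0.878, 0.586 and 0.583 FPKM in ovaries and 0, 0.0589 and 0 FPKM in brains.

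On the brain side, 27 of 32 genes of synaptic vesicle release were lower in ovaries, 24 at least 4-fold, and 2 were higher. The complexin gene cpx, which clamps fusion, had 0.128, 0.195 and 0.485 FPKM in ovaries and 261, 166 and 96.3 FPKM in brains. The SNARE gene Snap25 had 0.0906, 0.146 and 0.307 FPKM in ovaries and 144, 79.7 and 64.7 FPKM in brains. Its partner nSyb had 0.0488, 0.111 and 0.0519 FPKM in ovaries and 83.8, 52.4 and 55.4 FPKM in brains. The first brain library was the highest for all 3, and the lowest brain library was 198 times or more above the highest ovary library. NSF, which takes SNARE complexes apart, is encoded by comt, with 1.34, 1.25 and 1.47 FPKM in ovaries and 204, 171 and 239 FPKM in brains. Of the 2 higher genes, Vap33, of membrane contact sites in all cells, had 204, 188 and 187 FPKM in ovaries and 48.2, 35.6 and 28.3 FPKM in brains. Liprin-alpha, a scaffold of presynaptic sites, had 19.3, 20.8 and 18.9 FPKM in ovaries and 15, 10.5 and 11.7 FPKM in brains. The log2 differences of Vap33 and Liprin-alpha were 2.37 and 0.64.

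All 19 tested genes of transmitter synthesis, transport and removal were lower in ovaries, 18 at least 4-fold and 11 brain-restricted. An ovary mean of 1 FPKM or more was found in 3 of them, so the direction of most followed from the filter. For glutamate, the vesicular transporter gene VGlut had 0.00867, 0.052 and 0.0277 FPKM in ovaries and 163, 146 and 132 FPKM in brains. For GABA, the synthetic enzyme gene Gad1 had 0.0163, 0.134 and 0.0911 FPKM in ovaries and 212, 151 and 216 FPKM in brains. The GABA transporter gene Gat, used by glia, had 0.538, 0.293 and 0.415 FPKM in ovaries and 373, 361 and 249 FPKM in brains. These were the 3 largest differences of the list, at −7.17, −7.47 and −7.84. For acetylcholine, ChAT had 0.0483, 0.0346 and 0.0577 FPKM in ovaries and 28.8, 18.8 and 28.3 FPKM in brains. For serotonin, Trhn had 0.0929, 0.0665 and 0.0925 FPKM in ovaries and 59, 58.7 and 62.8 FPKM in brains. For dopamine, ple had 0.142, 0.124 and 0.125 FPKM in ovaries and 16.8, 5.2 and 10.2 FPKM in brains. The brain libraries were close for Trhn and 3.24-fold apart for ple, and no ovary library reached 0.2 FPKM in these 3 genes.

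All 39 receptors for transmitters were lower in ovaries, 36 at least 4-fold. Only 4 of them had an ovary mean of 1 FPKM or more, so for most the filter fixed the direction. The dopamine receptor gene Dop2R had 0.00874, 0.00625 and 0.00696 FPKM in ovaries and 122, 110.0 and 94.5 FPKM in brains. GluClalpha, a glutamate-gated chloride channel gene, had 0.0198, 0 and 0 FPKM in ovaries and 113, 115.4 and 76.3 FPKM in brains. The serotonin receptor gene 5-HT2A had 0.145, 0.146 and 0.143 FPKM in ovaries and 114, 118 and 86 FPKM in brains. Ovary levels of these 3 genes were at most 0.138% of the brain mean. Other receptors kept a level in ovaries. The nicotinic subunit gene nAChRalpha4 had 34.7, 37.3 and 41.4 FPKM in ovaries and 132, 116 and 50.1 FPKM in brains. Octopamine, an amine known to act in ovulation, is received by Oamb, with 6.71, 6.24 and 6.85 FPKM in ovaries and 29.7, 29.7 and 24.9 FPKM in brains. Another octopamine receptor gene, Octbeta2R, had 3.15, 2.63 and 2.88 FPKM in ovaries and 19.5, 17.9 and 16.9 FPKM in brains. All 3 were lower in ovaries, by log2 differences of −1.26, −1.93 and −2.29. However, nAChRalpha4 did not pass at equal sums (−0.15) or without the second brain library (−1.09).

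Ion channel genes were lower in ovaries in 27 of 29 cases, 24 at least 4-fold. An ovary mean of 1 FPKM or more was found in 7 of the 29, and the direction of the others followed from the filter. The inward rectifier gene Irk2 had 0.0987, 0.0513 and 0.201 FPKM in ovaries and 182, 212 and 213 FPKM in brains. The calcium-activated potassium channel gene slo had 0.0632, 0.0847 and 0.132 FPKM in ovaries and 119, 105 and 66.9 FPKM in brains. Against them, Irk1, another inward rectifier gene, had 17.6, 18.6 and 18.5 FPKM in ovaries and 8.41, 7.81 and 6.61 FPKM in brains. The potassium leak channel gene Ork1 had 23.5, 23.2 and 22.1 FPKM in ovaries and 15.4, 15.9 and 19.2 FPKM in brains. Irk1 and Ork1 were the 2 genes called higher in ovaries, at 1.17 and 0.43, so Irk1 and Irk2 were called in opposite directions. Ork1 did not pass with libraries scaled by medians of ratios (0.21).

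Neuropeptide and processing genes were all lower in ovaries, 33 of 33, with 31 at least 4-fold and 26 brain-restricted. In ovaries 4 listed genes had a mean of 1 FPKM or more, so most of these directions followed from the filter. Insulin-like peptide 2, from median neurosecretory cells, is encoded by Ilp2, with 0, 0.0704 and 0.0784 FPKM in ovaries and 778, 896 and 1288 FPKM in brains. The cholecystokinin-like peptide gene Dsk had 0.627, 0.808 and 0.7 FPKM in ovaries and 1252, 1508 and 1228 FPKM in brains. 7B2, whose protein helps a peptide-processing protease mature, had 0, 0.389 and 0.0787 FPKM in ovaries and 1020.3, 1014 and 1219 FPKM in brains. The brain libraries of these genes were within 1.66-fold of each other. Pdf, of clock neurons, had 0.0963, 0 and 0 FPKM in ovaries and 326, 414 and 367 FPKM in brains. The peptide gene with the highest ovary level was SIFa, with 10.4, 7.53 and 9.74 FPKM in ovaries and 45.3, 42 and 69 FPKM in brains. Its log2 difference was −2.35.

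Surface and structural genes of neurons ran in the same direction. Of 30 Dpr and DIP genes, which encode paired recognition proteins of the immunoglobulin family, 28 were at least 4-fold lower in ovaries and 1 was higher. Only 3 of the 30 had an ovary mean of 1 FPKM or more, so for most the filter fixed the direction. dpr21 had 0.174, 0.0833 and 0.139 FPKM in ovaries and 214, 192 and 162 FPKM in brains. The higher one, dpr6, had 14, 13.6 and 11.4 FPKM in ovaries and 8.93, 9.01 and 6.7 FPKM in brains. Of 27 genes of neuronal RNA binding, fate and structure, 27 were lower and 22 at least 4-fold. An ovary mean of 1 FPKM or more was found in 9 of the 27, so most of these directions followed from the filter too. In that list nrv3, a neuronal subunit gene of the sodium pump, had 0.384, 0.15 and 0.333 FPKM in ovaries and 525, 356 and 209 FPKM in brains. The homeodomain gene pros had 0.00209, 0.0343 and 0.0284 FPKM in ovaries and 184, 169 and 131 FPKM in brains. The lowest brain library was 546 times or more above the highest ovary library for both.

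Glial genes were lower in ovaries in 19 of 21 cases, 13 at least 4-fold. The defining factor gene repo had 0.115, 0.0471 and 0.0394 FPKM in ovaries and 49, 58 and 62.3 FPKM in brains. In astrocyte-like glia, alrm had 0.304, 0.5 and 0.556 FPKM in ovaries and 535, 655 and 482 FPKM in brains. The glutamine synthetase gene Gs2 had 1.42, 1.77 and 2.36 FPKM in ovaries and 699, 677 and 1026 FPKM in brains. No ovary library exceeded 2.4 FPKM in these genes. The citrate transporter gene Indy, used in many tissues, was the member higher in ovaries, with 87.7, 81.9 and 86.3 FPKM in ovaries and 38.7, 38.7 and 48.8 FPKM in brains.

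Genes of phototransduction and eye pigment were lower in ovaries in 27 of 30 cases, 22 at least 4-fold and 19 brain-restricted. In ovaries 6 of the 30 had a mean of 1 FPKM or more, and the direction of the others followed from the filter. The main opsin gene ninaE had 0.166, 0.428 and 0.159 FPKM in ovaries and 1315, 1604 and 1452 FPKM in brains. Rh2, the opsin gene of the ocelli, had 0.119, 0.17 and 0.126 FPKM in ovaries and 938, 1036 and 872 FPKM in brains. The arrestin gene Arr2 had 0.103, 0.269 and 0.382 FPKM in ovaries and 1348, 1308 and 1164 FPKM in brains. The brain libraries of these genes were within 1.22-fold of each other. The part of attached eye tissue in these levels was not tested. The pigment transporter gene bw, whose mutant allele these flies carry, was the member higher in ovaries, with 7.63, 6.87 and 6.37 FPKM in ovaries and 1.75, 1.55 and 1.48 FPKM in brains.

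Clock genes did not move as 1 group. Of 12 tested, 3 were higher in ovaries and 7 lower, beside 38.3% and 46.5% of all tested genes. The list's median of −0.80 became 0.25 at equal sums. The photoreceptor gene of the clock, cry, had 3.15, 2.97 and 3.92 FPKM in ovaries and 77.9, 87.2 and 114.7 FPKM in brains. The feedback gene tim had 7.76, 6.35 and 7.14 FPKM in ovaries and 39.7, 42.6 and 38 FPKM in brains. The kinase gene dco, which also acts outside the clock, had 126, 127 and 124 FPKM in ovaries and 21.2, 18.9 and 20.5 FPKM in brains. The repressor gene cwo had 16.9, 17.1 and 18.9 FPKM in ovaries and 9.39, 7.52 and 6.75 FPKM in brains. So cry and tim were lower and dco and cwo higher in ovaries.

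Genes of energy metabolism were lower in ovaries. All 34 tested complex I genes were lower, 18 at least 4-fold, with a median of −2.03, and 33 of 36 genes of complexes II to V were lower, with a median of −1.62. In glycolysis 13 of 14 genes were lower, with a median of −1.37. The pyruvate kinase gene PyK had 170.1, 185 and 166 FPKM in ovaries and 485, 491 and 694 FPKM in brains. The third brain library was the highest for PyK. These 3 medians kept their sign under every scaling tried, but at equal sums 23 complex I genes, 19 genes of complexes II to V and 3 genes of glycolysis were still called lower, and 1, 6 and 1 were called higher. Other lists of general cell functions were mostly higher in ovaries. They were 30 of 32 proteasome genes (median 0.88), 15 of 16 aminoacyl-tRNA synthetase genes (0.95), 7 of 7 chaperonin genes (1.86) and 20 of 22 nuclear pore genes (1.72). Cytosolic ribosomal protein genes had 8 of 82 higher and 53 lower, but 47 higher and 6 lower at equal sums. Under quantile normalization 40 of them were higher and 7 lower. Mitochondrial ribosomal protein genes turned at equal sums only, with 11 of 70 higher and 44 lower as deposited and 53 higher and 3 lower at equal sums. They had 11 higher and 45 lower under quantile normalization and 6 higher and 51 lower with medians of ratios. At equal protein-coding sums 13 were higher and 29 lower. No direction is given for these 2 groups.

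Cytochrome P450 genes, which oxidise hormones and foreign compounds, were split: 10 of 62 were higher in ovaries, 4 of them at least 4-fold, and 45 lower, 31 at least 4-fold. Cyp6a19 had 510.2, 460.2 and 459 FPKM in ovaries and 0.194, 1.08 and 0.738 FPKM in brains. Cyp28d1 had 0.195, 0.186 and 0.363 FPKM in ovaries and 401, 458 and 452 FPKM in brains. Each was close to absent from the other organ, and the log2 differences were 8.19 (SE 0.20) and −8.46 (SE 0.09). Cyp18a1, which inactivates ecdysone, had a smaller difference of 1.07. At equal sums 16 P450 genes were higher and 40 lower. Of 15 UDP-glycosyltransferase genes 3 were higher and 9 lower as deposited, and 7 were higher and 7 lower at equal sums. Of 8 kinesin-like genes 5 were higher and 3 lower. Beside 38.3% higher and 46.5% lower among all tested genes, no direction is given for the UDP-glycosyltransferase and kinesin-like lists.

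In some of the 28 families of related genes, members were called in opposite directions. In others they ran together, as in B cyclins (2 of 2 higher) and the ELAV family (3 of 3 lower). Of all tested genes 38.3% were called higher and 46.5% lower. Whether families split more often than unrelated genes was not tested. RpS5b, an ovarian copy of a small subunit protein, had 189, 234 and 249 FPKM in ovaries and 0.575, 1.36 and 2.02 FPKM in brains. The general copy RpS5a had 538, 571 and 629 FPKM in ovaries and 792, 869.8 and 1100.2 FPKM in brains. In tubulins, alphaTub67C, the maternal alpha tubulin gene, had 379, 374 and 359.6 FPKM in ovaries and 0.887, 0.991 and 2.06 FPKM in brains. The general alphaTub84B had 475, 499 and 465 FPKM in ovaries and 568, 606 and 895 FPKM in brains. The maternal gamma tubulin gene gammaTub37C had 59.7, 55.6 and 45.7 FPKM in ovaries and 0, 0 and 0.294 FPKM in brains. Its general counterpart gammaTub23C had 30.9, 30.4 and 28 FPKM in ovaries and 25.2, 31.7 and 32.8 FPKM in brains. In each of these 3 pairs the general gene was present in both organs at more than 20 FPKM and the ovarian or maternal one was at more than 40 FPKM in ovaries, with no brain library above 2.1 FPKM. RpS5a and alphaTub84B were lower in ovaries as deposited (−0.66 and −0.49) but not at equal sums (0.48 and 0.64).

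Some other families exchanged members. The sodium pump subunit gene nrv1 had 183, 185 and 180.2 FPKM in ovaries and 32.6, 22.5 and 24.3 FPKM in brains. Its paralog nrv2, used in glia and epithelia, had 13.4, 12.2 and 13.9 FPKM in ovaries and 684, 681 and 694 FPKM in brains. Of the Bruno proteins, which bind RNA, bru1 had 240.3, 241 and 236 FPKM in ovaries and 11.8, 10.2 and 9.34 FPKM in brains. Its relative bru3 had 0.242, 0.161 and 0.293 FPKM in ovaries and 58.6, 46.1 and 22.6 FPKM in brains. In both families the ovary member was still at 9 FPKM or more in every brain library. In the CPEB family of translational regulators, orb had 129.6, 125 and 126 FPKM in ovaries and 12.5, 8.1 and 5.87 FPKM in brains. Its relative orb2 had 5.77, 5.3 and 5.02 FPKM in ovaries and 35.1, 23.2 and 19.5 FPKM in brains. The general synaptobrevin gene Syb had 97.5, 94.3 and 97.4 FPKM in ovaries and 46.6, 41.9 and 50.2 FPKM in brains, opposite to nSyb. For the proton pump, Vha100-2 had 127, 123 and 113 FPKM in ovaries and 30.3, 25 and 30 FPKM in brains. The neuronal form Vha100-1 had 45.1, 43.6 and 41.1 FPKM in ovaries and 219, 244 and 263 FPKM in brains. In all 5 families 1 member was called higher and another lower in ovaries. The general thioredoxin gene Trx2 did not pass the test, with 201, 204 and 225.4 FPKM in ovaries and 221, 219 and 199 FPKM in brains and a difference of 1.11 at equal sums. Near-identical copies such as RpS14a and RpS14b or alphaTub84B and alphaTub84D may share reads, so their split is uncertain.

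**Figure D4:**
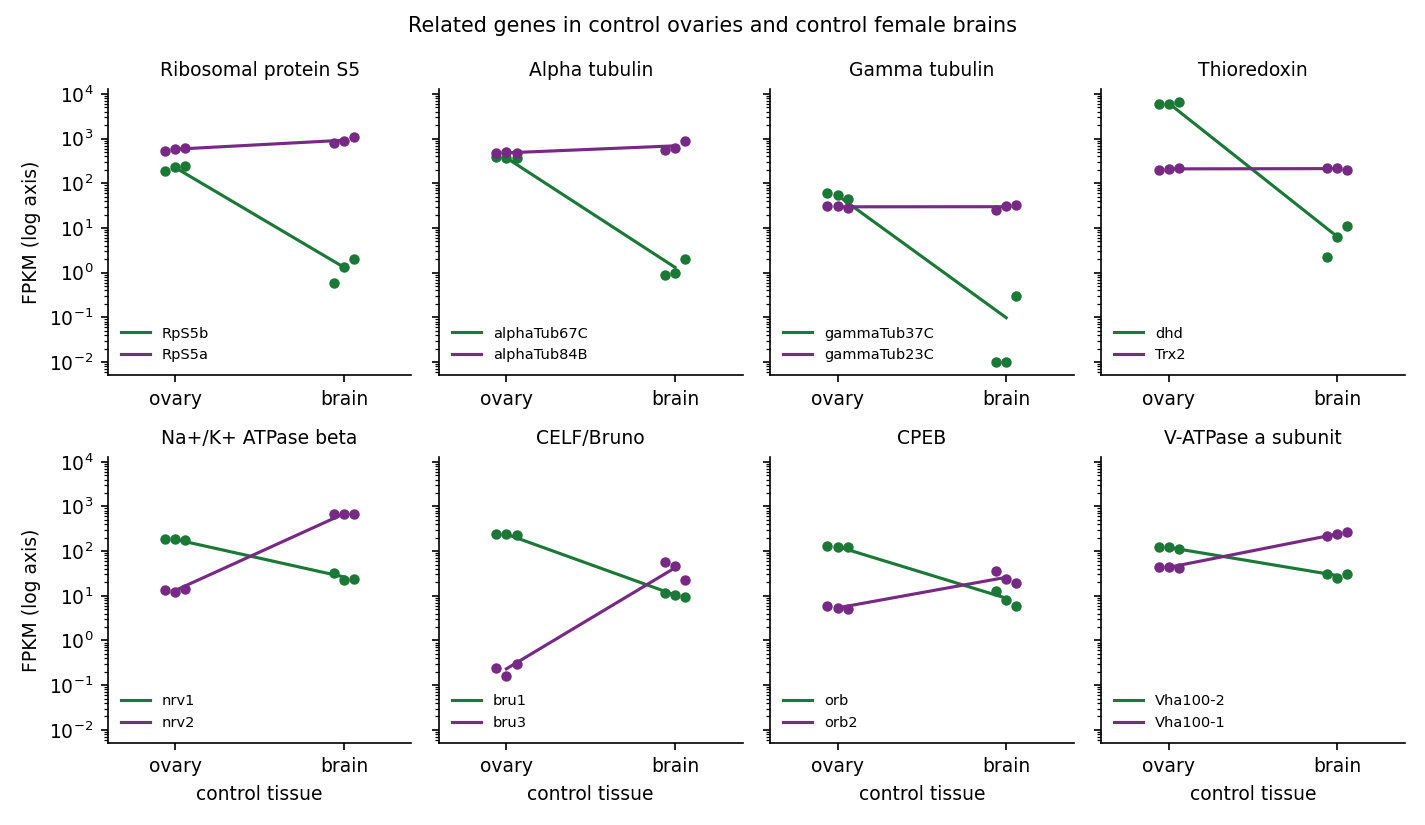
FPKM on a log axis (values under 0.01 drawn at 0.01) of 2 members of each of 8 gene families, with the 3 control ovary libraries left of the 3 control female brain libraries and a line joining the means. Crossing lines within a panel, as for nrv1 and nrv2 or orb and orb2, are families that exchange members.

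Of 676 tested genes annotated as ncRNA, 140 were higher in ovaries (20.7%, against 38.3% of all tested genes) and 372 lower (55.0%, against 46.5%), with a median of −1.11. At least 4-fold lower were 23.1% of them, against 21.6% of all tested genes. The shift of the median of all genes at equal sums, 1.03, was nearly as large as the ncRNA median. Of 209 small nucleolar RNA genes 9 were higher and 110 lower (52.6%, against 46.5% of all tested genes), with a median of −1.27. Of 22 small nuclear RNA genes 2 were higher and 16 lower, with a median of −3.26. The methods describe a size selection against short rRNA and tRNA, and its part in levels of other short RNAs was not tested. The neuronal RNA lncRNA:noe had 3.74, 9.11 and 6.6 FPKM in ovaries and 38291, 40999.9 and 30490.5 FPKM in brains. It had the largest difference of called noncoding genes of 300 nt or more, −12.31 (SE 0.28, limma adjusted p = 8.3e-08). Next to it in size, lncRNA:mimi had 0.575, 0.765 and 0.725 FPKM in ovaries and 3818, 3225 and 4174 FPKM in brains. On the ovary side, asRNA:CR43615 had 363, 312 and 305 FPKM in ovaries and 0.158, 0.459 and 0.741 FPKM in brains. asRNA:CR44155 had 104.3, 102 and 101 FPKM in ovaries and 0.0627, 0.228 and 0.168 FPKM in brains. All of them were at least 412 times apart between the nearest libraries of the organs. Antisense RNAs overlap other genes, and how strand was used in counting is not given in the sources used here, so part of such values may belong to the partner gene.

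RNA of each organ was looked for in the other. Eggshell genes, which brain cells are not known to use, had a median level in control female brain libraries of 0.0363%, 0.0777% and 0.548% of the ovary mean, highest in the third. In control male brains the same median was 0.0406%, 0.00498% and 0.0431%. Genes of PIWI proteins lay higher than that. Their medians were 2.46%, 2.2% and 1.75% of the mutant ovary mean in tud mutant female brains, 1.2%, 1.29% and 0.635% in control female brains and 0.773%, 0.294% and 0.444% in control male brains. The third control female brain library had the lowest PIWI median of its group but the highest level of aub. Both kinds of median were taken over genes called higher in control ovaries. For germ plasm genes the medians were 1.9%, 1.91% and 1.88% in control female brains, and for mitotic genes 2.58%, 2.18% and 2.28%. The source of this low-level RNA was not tested.

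**Figure D5:**
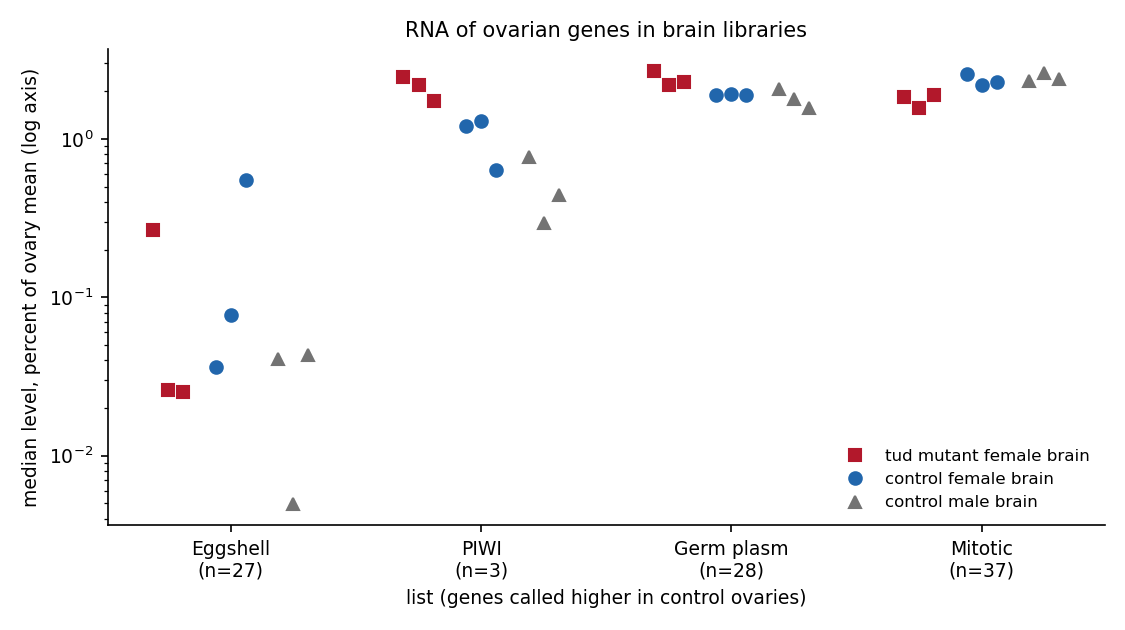
Median level on a log axis, in percent of the ovary mean of the same genotype, of genes called higher in control ovaries in 4 lists (27 eggshell, 3 PIWI, 28 germ plasm and 37 mitotic genes), for each library of tud mutant female, control female and control male brains. Eggshell genes are lowest in every library, and the third control female brain library has their highest value, 0.548%.

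Genes of the brain lists were looked at in ovaries in the same way. Of the genes called lower in ovaries, transmitter receptors had medians of 0.0883%, 0.138% and 0.168% of the brain mean in the 3 ovary libraries, and eye genes 0.0888%, 0.127% and 0.0908%. Glial genes called lower had higher medians, 1.96%, 1.77% and 2.03%. Markers of other organs lay mostly on the brain side. Of 7 tested haemocyte genes 6 were lower in ovaries and 1 was higher, beside 46.5% and 38.3% of all tested genes. Summed FPKM of the haemocyte list was 143 to 159 in ovaries and 265 to 289 in brains. Only 1 listed haemocyte gene had an ovary mean of 1 FPKM or more. Of the lower ones, Hml had 0.0876, 0.0769 and 0.136 FPKM in ovaries and 56.8, 50.9 and 48.7 FPKM in brains. All 9 tested gut genes were lower, beside 46.5% of all tested genes. Only 1 listed gut gene had an ovary mean of 1 FPKM or more, so the filter fixed most of these directions. Summed FPKM of the gut list was 35.5 to 40.9 in ovaries and 241 to 522 in brains, lowest in the second brain library. The trypsin gene alphaTry had 0, 0 and 0 FPKM in ovaries and 87.8, 22.3 and 70.8 FPKM in brains. The larval serum protein gene Lsp2, of fat body, had 0.328, 0.266 and 0 FPKM in ovaries and 39.2, 2.04 and 209 FPKM in brains. Both were lowest in the second brain library, and Lsp2 was highest in the third. The part of attached tissue in these levels was not tested. Muscle genes had no steady direction, with 0 of 13 higher in ovaries and 7 lower as deposited, 4 higher and 0 lower at equal sums, and 6 higher and 1 lower under quantile normalization. Mhc had 3.66, 3.44 and 3.46 FPKM in ovaries and 9.27, 7.13 and 11 FPKM in brains. Of 18 genes of testis and male tract 2 were tested, both lower in ovaries as deposited. The list held 0 genes with an ovary mean of 1 FPKM or more, so this direction followed from the filter. The median of the 2 tested genes, −1.38, turned to 0.09 under quantile normalization. Of 4 genes of sperm storage organs and oviduct 0 were tested.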

How the data were processed

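The samples were total RNA libraries (TruSeq Stranded Total RNA with Ribo-Zero Gold, no poly(A) selection, Illumina NextSeq), 3 for each of 6 groups. After rRNA depletion, a size selection was made to remove short rRNA and tRNA. Per the labels and methods, the authors aligned reads with TopHat2 (given as 2.0.13 in the processing notes) to dm6 guided by a BDGP6 annotation and computed the deposited FPKM values with Cuffnorm 2.2.1. Whether Cuffnorm also scaled between libraries is not given in the sources used here. Symbols, biotypes and positions came from a later BDGP6 annotation, which matched 17016 of 17288 identifiers. The methods call the 3 libraries of a group biological replicates, each sequenced over several lanes and runs, and p-values measure the spread between them.

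FPKM values were tested on log2(FPKM + 1) with limma 3.58.1 (R 4.3.3, trended empirical Bayes moderation, two-sided, Benjamini-Hochberg adjustment over all tested genes, 3 against 3), after a filter on a mean of 1 FPKM. Fold changes on this scale understate changes of low genes. The fit was tried on simulated data with normal noise, where few genes were changed and genes of low mean were left out. These data differ from that setting, as most genes were called and genes of low mean were tested. Tables and plots were made with Python 3.11.15, pandas 2.3.3, numpy 2.4.6 and matplotlib 3.10.9. The interaction of tissue and genotype was fitted on the 4 female groups. Alternatives were the pseudocount, filters, 4 scalings, moderation, a stricter threshold, all 18 libraries in 1 fit, a replicate block, protein-coding genes alone and leaving out each library. Scaling by protein-coding sums, and leaving out libraries in the mutant and interaction fits, were added after the data had been seen.

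The genes compared, the 33 gene lists, 28 families and 12 lists by symbol were chosen with earlier results of these data known. Named genes were piwi, aub, Syt1 and brp, in each list up to 4 called members with the largest difference and no overlap and up to 2 called against the list's direction, family members, the 10 largest differences of restricted protein-coding genes and the 10 highest means in each tissue, and the 5 largest differences of noncoding genes each way, each with exons of 300 nt or more. Other genes were named for their role after their values had been seen. Some members of the lists were not analysed here.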

Additional observations from a re-analysis of the deposited data

Results flagged for a closer look

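For 110 of 10443 genes (1.05%) the difference between ovary and female brain itself differed between tud mutants and controls (limma interaction term, 60 higher and 50 lower in mutants, 2113 at an unadjusted p under 0.05). Leaving out single libraries gave 45 to 469 genes. Of the genes described above, 6 were among them. The interaction below is the tissue difference in mutants minus that in controls, on the log2 scale.

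The interaction of tud was −1.97 (SE 0.36, limma adjusted p = 0.035). In tud mutants it had 9.1, 11.6 and 12.4 FPKM in ovaries and 15.3, 32.3 and 14.1 FPKM in brains, and in controls 67.2, 61 and 63.2 FPKM in ovaries and 31.4, 26 and 23.9 FPKM in brains. The gene was thus lower in mutant ovaries than in control ovaries in every library, while the brain libraries overlapped.

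For piwi the interaction was −1.08 (SE 0.18, limma adjusted p = 0.021). In mutants piwi had 155, 132 and 142 FPKM in ovaries and 2.59, 3.15 and 2.11 FPKM in brains, and in controls 148, 137 and 131 FPKM in ovaries and 0.874, 0.611 and 0.473 FPKM in brains. The ovary libraries of piwi overlapped between genotypes, and every mutant brain library was above every control brain library.

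The opposite sign was found for pgc, with an interaction of 2.04 (SE 0.38, limma adjusted p = 0.037). In mutants pgc had 998, 716 and 755 FPKM in ovaries and 4.31, 1.09 and 3.05 FPKM in brains, and in controls 553, 548 and 571 FPKM in ovaries and 9.28, 8.27 and 9.56 FPKM in brains. For pgc neither tissue overlapped between genotypes.

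The remaining interactions were −1.86 for c(2)M (limma adjusted p = 0.0092), −1.01 for Psf3 (0.0043) and −0.95 for cwo (0.031). In c(2)M the mutant brains had 5.02, 5.14 and 4.59 FPKM and the control brains 1.36, 1.84 and 0.597 FPKM. In Psf3 the mutant brains had 91.8, 104.1 and 97.4 FPKM and the control brains 50.3, 44.4 and 43.2 FPKM. All 3 genes had mutant brain libraries above every control brain library.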

How the results depend on the processing

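With every library at the same sum of FPKM, 5944 genes were higher in ovaries and 2964 lower, 2325 were at least 4-fold higher, and 278 were ovary-restricted and 470 brain-restricted. Quantile normalization gave 1450 genes at least 4-fold higher. The share of called genes that were higher in ovaries was 66.7% at equal sums, 54.5% under quantile normalization, 50.4% at equal protein-coding sums, 39.4% with medians of ratios and 45.2% as deposited. The cause was not tested. Limits of 20 and 0.5 FPKM left 97 ovary-restricted and 363 brain-restricted genes. Every other alternative moved these counts by less than 1.5 times. Leaving out 1 library, which can only add restricted genes, gave 185 to 213 ovary-restricted and 795 to 871 brain-restricted genes.

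The count of 110 interactions rested on single libraries: it ranged from 45 (without control ovary replicate 1, and likewise replicate 2) to 469 (without control female brain replicate 1), with 350 without tud mutant female brain replicate 2. It was 67 with a pseudocount of 0.1, 176 under quantile normalization and 62 with a replicate block. Ovary and brain libraries with the same number did not deviate together (correlations of 0.019, −0.023 and −0.059), so the numbers pair nothing here. With a replicate block, 3824 genes were higher in ovaries and 4659 lower, and the mutants had 7421 called genes in place of 7857.

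Of 153 tested genes with values in the text, 133 kept their call and direction in every setting that tested them. At equal sums the difference changed sign for capu (0.54), Psf3 (0.12), Non1 (0.47), His3.3B (0.28), RpS5a (0.48), alphaTub84B (0.64), gammaTub23C (1.09) and Trx2 (1.11). Under quantile normalization it did so for mei-W68 (0.39), RpS5a (0.17), alphaTub84B (0.25) and Trx2 (0.34). The call was lost without single libraries for alphaTub84B (each ovary library, −0.52 to −0.47) and Lsp2 (ovary replicate 3, −4.51, and brain replicate 1, −4.41). It was also lost for Yp2 (ovary replicate 1) and nAChRalpha4 (brain replicate 2), as given above. AGO1 gained a call without brain replicate 1 (0.42). Estimated depth was lower in brains, which, if FPKM was not scaled between libraries, limits ratios for genes near 0 there.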
